A study of Bos grunniens with 6 samples.

Results

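The complement and coagulation genes were compared between cultured dermal papilla cells (DPC) and hair matrix cells (HMC) of the yak (Bos grunniens). They are the rows of the deposited table that carry the pathway term for complement and coagulation cascades, less PLAU and the rows that also carry a matrix annotation. Of 15646 genes in the table, 59 rows held the term. PLAU was left out, and 3 more, F3 and VWF among them, were left out for their matrix annotation, which leaves 55 members under 49 names. DPC are mesenchymal cells from the base of the hair follicle and HMC are epithelial cells that surround them and divide to build the hair. Both were wild type and came from skin, and 3 cultures of each were grown in the same DMEM/F12 medium with 10% fetal bovine serum, EGF at 20 ng/mL and IGF1 at 10 ng/mL. The labels call the 3 cultures biological replicates but do not say whether they came from separate animals, so the p-values measure the spread between these cultures only.

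Complement is a chain of secreted proteins that tags and lyses foreign cells. It starts in the classical pathway from C1q with the proteases C1r and C1s, in the lectin pathway from sugar-binding collectins with the MASP proteases, and in the alternative pathway from C3 with factors B and D. All of these meet at the cleavage of C3 and end in a pore made of the terminal components, and membrane and fluid-phase regulators protect the body's own cells. Clotting is a similar chain that starts at tissue factor and ends with thrombin and fibrin, and plasmin, made from plasminogen by PLAT or PLAU, dissolves the clot. The liver makes most of the plasma proteins of both chains, and skin fibroblasts and keratinocytes make some of them locally.

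The table gives FPKM, fragments scaled to gene length and to the mapped fragments of the library, so levels of different genes can be set side by side. The reads that could be recovered from these values came to between 13.1 and 14.0 M per library. The 10 fibroblast and papilla markers examined were all higher in DPC, where they summed to between 17583 and 18287 FPKM, against 586 to 693 FPKM in HMC. Of 11 markers of follicle epithelium and keratinocytes, 10 were higher in HMC, with sums of 10043 to 10459 FPKM there and 73.1 to 94.8 FPKM in DPC. The largest HMC means among the 11 were those of KRT19 (4090 FPKM), KRT8 (3352 FPKM), KRT5 (1083 FPKM) and KRT18 (982 FPKM). KRT14 was the marker not called, with a DPC mean of 16.2 FPKM, against 15.0 for HMC. TP63 was higher in HMC but low, with a mean of 0.992 FPKM. Each culture thus carried mainly the fibroblast or epithelial markers that go with its label. Whether these sums set hair matrix cells apart from other epithelial cells was not tested. In bulk RNA, fewer cells of a type and less RNA per cell cannot be told apart.

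The complement proteases MASP1, C1S, QccE-15711, CFB and C2 and protein S (PROS1) were higher in DPC, and PLAT, PLAUR, SERPINB2, clusterin, CD46 and C3 were higher in HMC. Genes were tested with limma on log2(FPKM + 1) where their mean over the 6 samples was at least 0.5 FPKM, and a gene was called at a Benjamini-Hochberg adjusted p under 0.05. Of the 55 members 27 reached that mean, and 24 of these were called, 11 higher in DPC and 13 higher in HMC. Over all 11883 tested genes, 75.9% were called, 29.7% higher in DPC and 46.2% higher in HMC, so the share among the members (88.9%) lay not far above the background. Calls of at least 2-fold in either direction numbered 16 of the 27, against 27.1% of all tested genes. The values of the 2 cell types did not overlap for 23 of the 27, against 77.9% of all tested genes. The median of the size of the log2 difference, regardless of sign, was 1.45 over the 27 and 0.50 over all tested genes. Of the 27, 5 members, C1S, CFD, F13A1 and SERPINC1 among them, reached the limit through 1 cell type only, so they had to differ. Over all tested genes the log2 difference had a median of -0.15 with FPKM as deposited, and of -0.02, 0.05 and 0.05 under 3 other scalings, and the share of all calls that were higher in DPC was 39.1% as deposited and 48.9 to 53.9% under those scalings. Differences of about that size are read against this shift.

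**Figure D1:**
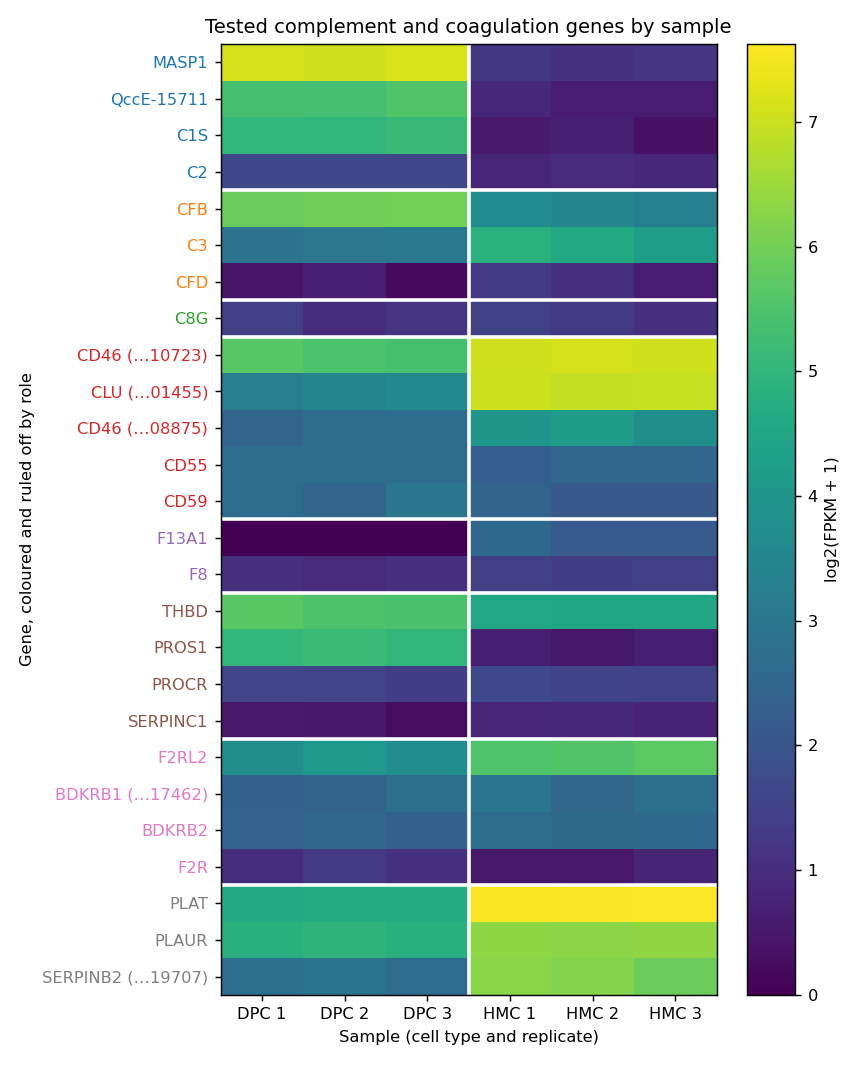
Level of 26 tested members in each of the 6 samples, as log2(FPKM + 1) on the colour scale, with rows coloured and ruled off by role and columns grouped by cell type. Members that share a symbol carry the last digits of their identifier. The classical and lectin rows at the top are bright in the 3 DPC columns, and the fibrinolysis rows at the bottom are bright in the 3 HMC columns.

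The proteases that start the classical and lectin pathways were the members with the largest differences toward DPC. MASP1 (in the table CRARF, ENSBGRG00000001306), a protease of the lectin pathway whose gene also makes other splice products that FPKM per gene does not separate, stood at 139.8, 135 and 144 FPKM in the DPC cultures and at 1.38, 1.16 and 1.30 FPKM in the HMC cultures. It was the most abundant member in DPC, 109-fold above HMC (log2 difference 5.95, SE 0.061, limma adjusted p = 6.27e-11). C1S, the protease of the C1 complex that cleaves C4 and C2, stood at 32.0, 31.7 and 35.2 FPKM in DPC and at 0.454, 0.587 and 0.308 FPKM in HMC. The log2 difference was 4.55 (SE 0.091, limma adjusted p = 1.40e-09). C1S reached the limit for testing through DPC only, so that p-value is no separate support for the difference. The row called QccE-15711 (ENSBGRG00000020276) is annotated as a calcium-binding serine protease of the classical pathway, as C1S is. That annotation fits C1R, the partner of C1S, but the symbol does not settle it. It stood at 40.9, 39.5 and 45.6 FPKM in DPC and at 0.846, 0.502 and 0.497 FPKM in HMC (log2 difference 4.74, SE 0.10, limma adjusted p = 2.22e-09).

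Within DPC these rows kept a steady proportion. The level of QccE-15711 over that of C1S was 1.28, 1.25 and 1.30 in the 3 DPC cultures. In HMC it was 1.86, 0.854 and 1.61, where the rows rest on 22 and 39 reads in all. C2, the next substrate in the classical pathway, was low in both, at 2.13 ± 0.059 FPKM in DPC, against 0.842 ± 0.074 in HMC (SD, n = 3 each), with a log2 difference of 0.77 (limma adjusted p = 4.12e-05). The C4 row (CO4), which the classical and lectin proteases cleave first, stood at only 0.310 FPKM in DPC, against 0.317 in HMC, and MASP2 had 2 reads in DPC and 1 in HMC. Both were under the limit for testing. The summed FPKM of the 6 members with this role lay at 209 to 227 in DPC, and at 3.23 to 3.82 in HMC.

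Factor B and C3, which together form the alternative pathway convertase, went opposite ways. CFB (in the table BF), the protease of that convertase, stood at 58.2, 61.5 and 63.6 FPKM in DPC and at 11.96, 10.6 and 8.86 FPKM in HMC. The groups did not overlap, and CFB was 5.84-fold higher in DPC (log2 difference 2.45, SE 0.098, limma adjusted p = 8.03e-08). C3, the component on which all pathways converge, stood at 6.43, 7.12 and 7.55 FPKM in DPC and at 28.3, 23.5 and 18.1 FPKM in HMC. It was 3.31-fold higher in HMC (log2 difference -1.58, SE 0.14, limma adjusted p = 1.66e-05), and its 3 HMC values differed more among themselves than those of most members. The level of CFB over that of C3 was 8.71 ± 0.314 in DPC and 0.454 ± 0.033 in HMC (SD, n = 3 each). An exact two-sided permutation test of this ratio gave p = 0.1, the smallest that 3 against 3 allows.

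Factor D (CFD), which cleaves factor B bound to C3b, was near the limit of detection and reached the limit for testing through HMC only. It stood at 0.365 ± 0.228 FPKM in DPC, from 22 reads, and at 1.03 ± 0.470 FPKM in HMC, from 65 reads (SD, n = 3 each). The groups overlapped, and the call toward HMC (log2 difference -0.56, limma adjusted p = 0.0295) was lost in each fit that left out DPC replicate 1 or 3 or HMC replicate 1 or 2, with limma adjusted p between 0.0672 and 0.0998. It was lost too after quantile normalization and with FPKM scaled to equal sums (limma adjusted p = 0.0612 and 0.0552). Of the terminal components, C8G, the small lipocalin chain of C8, stood at 1.32 ± 0.380 and 1.45 ± 0.401 FPKM in DPC and HMC (SD, n = 3 each). Its log2 difference was -0.08 with a 95% interval from -0.44 to 0.28 (limma adjusted p = 0.654). C5 (CPAMD4), the precursor of the pore's first subunit, was at 0 in DPC and had 2 reads in HMC.

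**Figure D2:**
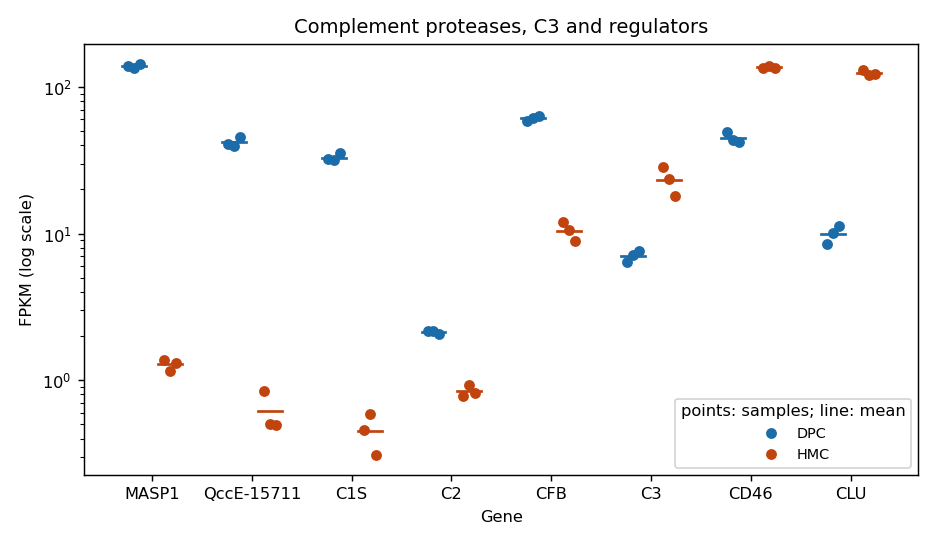
FPKM on a log scale for complement members in DPC (blue) and HMC (orange), where each point is 1 culture and each line the mean of 3. For CD46 and CLU the row with the higher mean is drawn. MASP1, QccE-15711, C1S, C2 and CFB lie higher in all DPC cultures, and C3, CD46 and CLU lie higher in all HMC cultures.

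The tested rows of complement regulators were split, 3 higher in each cell type, and the rows higher in HMC belong to CD46 and CLU only. Over all tested genes 29.7% were higher in DPC and 46.2% higher in HMC. CD46 (MCP), a membrane cofactor for the cleavage of C3b and C4b, has 3 rows. The most abundant one (ENSBGRG00000010723) stood at 49.5, 43.4 and 41.8 FPKM in DPC and at 135, 138 and 134 FPKM in HMC. The HMC values were about the same in every culture and 3.02-fold above DPC (log2 difference -1.58, SE 0.064, limma adjusted p = 8.66e-08). A second CD46 row (ENSBGRG00000008875) showed the same direction at a lower level, 5.32 ± 0.638 against 15.3 ± 2.25 FPKM (SD over n = 3 each; log2 difference -1.36, limma adjusted p = 1.19e-05), and the third had 1 read in all. Clusterin (CLU), a secreted chaperone that blocks assembly of the terminal pore, has 2 rows. The main one (ENSBGRG00000001455) stood at 8.53, 10.1 and 11.3 FPKM in DPC and at 131, 120.3 and 122 FPKM in HMC. It was 12.5-fold higher in HMC (log2 difference -3.52, SE 0.091, limma adjusted p = 5.84e-09). The other CLU row had 6 reads in DPC and 32 in HMC. Rows that share a name may share reads, and how such reads were counted is not known here, so the single values of CD46 and CLU are uncertain.

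The other membrane regulators differed little. CD55 (CR), which speeds the decay of the convertases, stood at 5.61 ± 0.091 FPKM in DPC, against 4.44 ± 0.507 in HMC, and CD59, which blocks insertion of the pore, at 5.67 ± 1.20 and 3.69 ± 0.573 FPKM (SD, n = 3 each). Both were called toward DPC by small factors, with log2 differences of 0.28 and 0.50 (limma adjusted p = 0.0166 and 0.0128). So of the membrane regulators CD46 was the most abundant in both cell types, and in HMC its main row stood above CD55 and CD59 by more than the spread of the cultures. Factor I (CFI), the protease that works with CD46 to cleave C3b, had 0 reads in DPC and 10 in HMC.

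The remaining regulators were nearly silent. C4BPA and C4BPB, chains of the C4b-binding protein, were at 0 in all DPC cultures and had 1 and 3 reads in HMC. The row without a symbol (ENSBGRG00000005774), annotated as a serine protease inhibitor that restrains complement and clotting, as C1 inhibitor is, stood at 0.675, 0.414 and 0.238 FPKM in DPC and at 0.099, 0.260 and 0.225 FPKM in HMC, and these values overlap. It was not tested. The 13 rows of this role summed to 72.7 to 77.2 FPKM in DPC, and to 278 to 290 in HMC.

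None of the 4 complement receptors reached the limit for testing. C5AR1, the receptor of the anaphylatoxin C5a, lay just under it, with a mean of 0.499 FPKM. It stood at 0.070, 0.072 and 0 FPKM in DPC and at 0.959, 1.49 and 0.402 FPKM in HMC, from 2 and 42 reads. ITGAX (CD11C), an integrin chain that binds iC3b on white blood cells, stood at 0.332 and 0.317 FPKM, and its partner ITGB2 (CD18) and ITGAM (CD11B) had 1 and 2 reads, all in HMC. Of 9 macrophage and monocyte markers 8 were matched, and they summed to 13.5 to 14.1 FPKM in DPC and 14.7 to 20.2 FPKM in HMC. Among them CSF1R stood at 0.018 FPKM or less in every culture, CD163 was at 0 in all HMC cultures and ITGAM at 0 in all DPC cultures, while AIF1 stood at 6.77, 7.87 and 4.81 FPKM in HMC and at 0.077 FPKM or less in DPC. CD14 was also higher in HMC (2.47 against 10.1 FPKM), LAPTM5 was higher in DPC (9.46 against 0.257 FPKM), and CD68 was not called (1.29 against 1.14 FPKM), so the list did not move one way. The part of these markers in the C5AR1 values was not tested.

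Clotting factors themselves were few. F13A1 (F13A), the transglutaminase subunit that crosslinks fibrin, was listed at 0 in all 3 DPC cultures and stood at 4.83, 3.51 and 3.57 FPKM in HMC, from 633 reads. The log2 difference of -2.30 (SE 0.12, limma adjusted p = 3.53e-07) depends on the added 1 FPKM. F13A1 reached the limit for testing through HMC only, so that p-value is no separate support for the difference. F8, the cofactor of the intrinsic pathway, stood at 1.04 ± 0.144 FPKM in DPC, against 1.67 ± 0.055 in HMC (SD, n = 3 each) and was called toward HMC with a log2 difference of -0.39 (limma adjusted p = 0.00388). F2 (prothrombin), F5, FGB (a fibrinogen chain) and KNG1 (kininogen) had at most 3 reads in either cell type, and F12 had 16 in DPC and 6 in HMC. Of 5 hepatocyte markers matched 3 were tested, and ALB, APOA1 and SERPINC1, itself a member, were all called toward HMC, the direction of F8 and F13A1. ALB was the most abundant, at 3.02 to 3.51 FPKM in DPC and 3.96 to 5.35 FPKM in HMC. TTR had its higher values in DPC (0.570 against 0.091 FPKM), and FGB stood at 0.039 and 0.025 FPKM, both too low to test. The part of these markers in the clotting factor values was not tested.

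**Figure D3:**
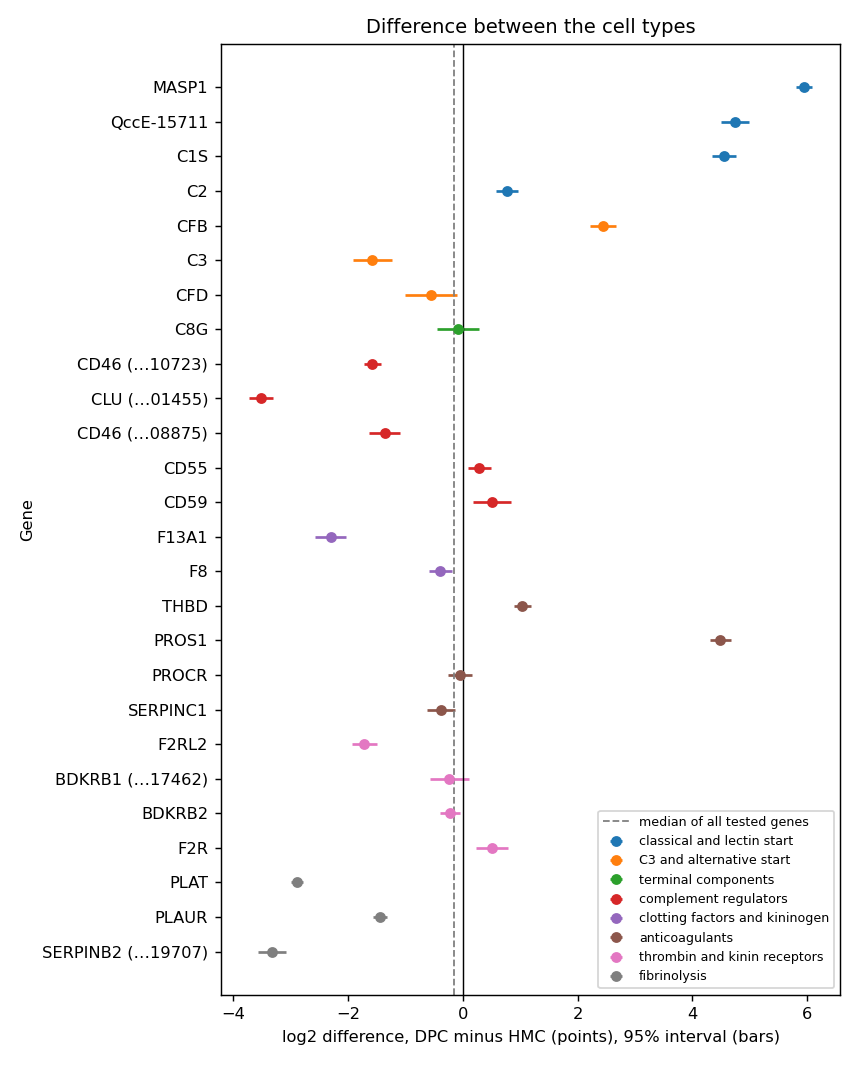
Log2 difference, DPC minus HMC, of 26 tested members (points) with 95% limma intervals (bars), coloured by role, where the dashed line is the median of all tested genes at -0.15. MASP1 lies farthest to the right at 5.95 and CLU farthest to the left at -3.52, and the intervals of C8G, PROCR and BDKRB1 cross 0.

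In the protein C system of anticoagulants, PROS1 and THBD were higher in DPC. Protein S (PROS1, in the table PROS), the cofactor of activated protein C and a ligand of the TAM receptors, stood at 32.1, 35.4 and 31.7 FPKM in DPC and at 0.547, 0.418 and 0.604 FPKM in HMC. The DPC cultures were all above 30 FPKM and the HMC cultures all under 1 FPKM (63.3-fold, log2 difference 4.48, SE 0.080, limma adjusted p = 7.39e-10). Thrombomodulin (THBD), the membrane receptor that turns thrombin toward protein C, stood at 50.04, 44.5 and 42.7 FPKM in DPC and at 22.3, 21.5 and 21.3 FPKM in HMC. It was abundant in both and 2.10-fold higher in DPC (log2 difference 1.04, SE 0.066, limma adjusted p = 1.62e-06). PROCR (EPCR), the membrane receptor of protein C, did not pass, at 1.90 ± 0.186 and 2.01 ± 0.192 FPKM in DPC and HMC (SD, n = 3 each). Its log2 difference was -0.05 with a 95% interval from -0.26 to 0.16 (limma adjusted p = 0.629). Protein C itself (PROC) had 1 read in all.

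Antithrombin (SERPINC1, in the table AT3), an inhibitor of thrombin and factor Xa, was low, at 0.351 ± 0.132 FPKM in DPC, against 0.749 ± 0.078 in HMC (SD over n = 3 each; log2 difference -0.38, limma adjusted p = 0.0112). It rests on 21 and 47 reads and reached the limit for testing through HMC only, so its call is no separate support for a difference. SERPINA5 and A2M, both broad protease inhibitors of plasma, had 2 reads and 1 read. Of 7 endothelial markers, cells in which THBD and PROCR are best known, 6 were matched. PECAM1 and CDH5 stood at 0.065 FPKM or less in every culture, CLDN5 was at 0 in DPC, VWF stood at 1.04 to 1.13 FPKM in HMC, and ENG stood at 59.8 to 62.8 FPKM in DPC and 1.92 to 1.99 FPKM in HMC. KDR stood at 0.171 FPKM in DPC, against 0.022 in HMC. ENG thus went the way of THBD and VWF the opposite way, and the part of these markers in the THBD values was not tested.

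The receptors for thrombin went separate ways. F2RL2 (PAR3), a thrombin receptor that mainly serves as a cofactor for other receptors of its family, stood at 12.9, 15.8 and 12.3 FPKM in DPC and at 44.9, 45.8 and 50.6 FPKM in HMC. It was 3.44-fold higher in HMC (log2 difference -1.72, SE 0.096, limma adjusted p = 6.78e-07). F2R (PAR1), the main thrombin receptor of many cells, was far lower, at 1.19 ± 0.256 FPKM in DPC, against 0.536 ± 0.155 in HMC (SD, n = 3 each), and was called toward DPC with a log2 difference of 0.51 (limma adjusted p = 0.00500). It rests on 61 and 29 reads. F2RL2 thus exceeded F2R 11.7 ± 1.29 times in DPC and 91.2 ± 17.7 times in HMC (SD, n = 3 each; exact two-sided permutation p = 0.1, the smallest that 3 against 3 allows). F2RL3 (PAR4) had 1 read in all.

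Receptors for kinins were at similar low levels in both. BDKRB2, the constitutive bradykinin receptor, stood at 4.37 ± 0.273 FPKM in DPC, against 5.27 ± 0.248 in HMC (SD over n = 3 each; log2 difference -0.22, limma adjusted p = 0.0250). That call was lost under each of the other 3 scalings, with limma adjusted p between 0.291 and 0.729. It was lost too without DPC replicate 1 or 3 or HMC replicate 1 or 2, with limma adjusted p between 0.0586 and 0.0755. BDKRB1, the inducible receptor, has 3 rows, and the abundant one (ENSBGRG00000017462) stood at 4.81 ± 0.952 and 5.86 ± 1.06 FPKM (SD, n = 3 each). Its log2 difference was -0.24 with a 95% interval from -0.58 to 0.10 (limma adjusted p = 0.169), and it passed without DPC replicate 3 (limma adjusted p = 0.0441). The other rows of that name had 18 and 5 reads in all.

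Of the fibrinolysis members 3 were tested, and all 3 were at least 2-fold higher in HMC. Tissue plasminogen activator (PLAT), which cuts plasminogen on fibrin, stood at 24.1, 25.2 and 25.2 FPKM in DPC and at 185, 192 and 196 FPKM in HMC. It was the most abundant member in HMC, 7.70-fold above DPC (log2 difference -2.90, SE 0.043, limma adjusted p = 3.15e-10). The urokinase receptor (PLAUR), which holds PLAU at the cell surface, stood at 27.5, 29.9 and 27.7 FPKM in DPC and at 79.0, 77.1 and 80.7 FPKM in HMC (log2 difference -1.45, SE 0.050, limma adjusted p = 3.38e-08). SERPINB2 (PAI2), an inhibitor of both activators that is common in keratinocytes, went the same way as the activators. Its main row (ENSBGRG00000019707) stood at 5.94, 6.65 and 5.30 FPKM in DPC and at 75.7, 72.8 and 59.2 FPKM in HMC, 11.6-fold higher (log2 difference -3.33, SE 0.11, limma adjusted p = 2.22e-08). A second SERPINB2 row was at 0 in DPC and had 24 reads in HMC.

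Plasminogen (PLG) itself had 16 reads in DPC and 2 in HMC, and the plasmin inhibitor SERPINF2 (PLI) had 14 and 8. Levels of PLAT lay far above those of PLG, its substrate, in both cell types. PLAU, the other activator, is no member, and stood at 43.04, 38.9 and 35.8 FPKM in DPC and at 875, 827 and 768 FPKM in HMC. The level of PLAT over that of SERPINB2, its inhibitor among the members, was 4.05, 3.78 and 4.75 in the DPC cultures and 2.45, 2.63 and 3.32 in the HMC cultures. The groups did not overlap (exact two-sided permutation p = 0.1, the smallest that 3 against 3 allows). This is a ratio of mRNA levels and not of protein activity.

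**Figure D4:**
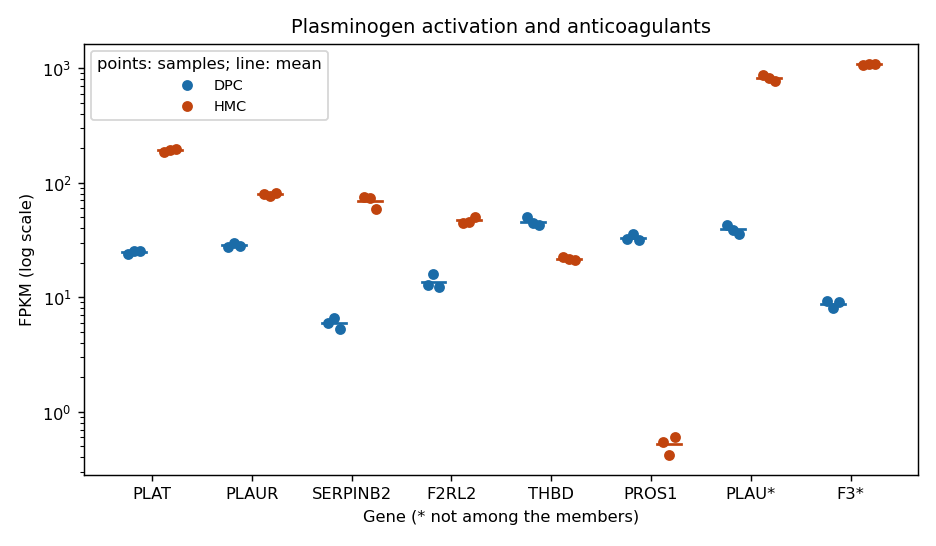
FPKM on a log scale for fibrinolysis and clotting genes in DPC (blue) and HMC (orange), where each point is 1 culture and each line the mean of 3, and an asterisk marks genes that are no members. For SERPINB2 the row with the higher mean is drawn. PLAT, PLAUR, SERPINB2 and F2RL2 lie higher in all HMC cultures, and THBD and PROS1 lie higher in all DPC cultures.

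Of 91 genes listed for these pathways by role, 55 were matched to a row, and 32 of these were tested. Of the 32, 11 were higher in DPC and 18 higher in HMC (90.6% called, against 75.9% of all tested genes). Among the 32 tested genes of the list 7 were no members, 6 of them higher in HMC and 1 higher in DPC. Tissue factor (F3), which starts clotting, stood at 9.37, 8.03 and 9.03 FPKM in DPC and at 1074, 1093 and 1096 FPKM in HMC (log2 difference -6.80, limma adjusted p = 3.98e-11). The level of F3 over that of THBD was 0.193 ± 0.016 in DPC and 50.1 ± 1.78 in HMC (SD, n = 3 each; exact two-sided permutation p = 0.1, the smallest possible). F2RL1 (PAR2), a receptor cut by trypsin-like proteases, stood at 0.901 ± 0.272 FPKM in DPC, against 326 ± 21.5 in HMC (SD over n = 3 each; log2 difference -7.44, limma adjusted p = 2.71e-10). C5AR2, a further C5a receptor, stood at 0.049 FPKM in DPC, against 1.18 in HMC. The collectin COLEC11, a lectin that carries MASP proteases, was abundant in both, at 301 ± 2.44 and 348 ± 5.90 FPKM (SD, n = 3 each). Its log2 difference of -0.21 became -0.05, 0.05 and 0.02 under the other scalings, so it gives no direction, whereas MASP1 differed 109-fold.

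Terms that the rule for members did not use were compared between them and other genes. PLAU and the rows left out for matrix annotation count among the other genes where they carry a term. The sets compared are therefore unlike. Of 7 tested members annotated with serine-type endopeptidase activity, 5 were higher in DPC (MASP1, QccE-15711, C1S, CFB and C2) and PLAT and CFD were higher in HMC. The groups overlapped for CFD, and its call was lost in several alternatives. C1S and CFD reached the limit for testing through 1 cell type only. Of 41 other tested genes with that annotation 14 were higher in DPC and 25 in HMC. Both tested members annotated as inhibitors of such enzymes, SERPINB2 and SERPINC1, were higher in HMC, as were 18 of 28 other genes with that term. SERPINC1 reached the limit for testing through HMC only. Of 14 members annotated as extracellular 6 were higher in DPC and 7 in HMC (42.9% and 50.0%), close to the 42.0% and 46.0% of 698 other genes with that term. By gene order in the RefSeq annotation of a yak assembly, in which 42 of the 49 names were found, CFB and C2 are next to each other, as are C1R and C1S, BDKRB1 and BDKRB2, and F2R and F2RL1. CFB and C2 were both higher in DPC, whereas F2R was higher in DPC and F2RL1 next to it was higher in HMC, as was F2RL2, which has 1 protein-coding gene between it and F2R.

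Replicates of a cell type lay close together for most members. The coefficient of variation (SD over mean) had a median of 8.68% over 24 members with a mean of at least 1 FPKM in DPC, and of 10.5% over 20 such members in HMC. The widest were C8G in DPC (28.8%) and CFD in HMC (45.6%). HMC replicate 3, which lies apart from the other HMC libraries on the second principal component, held the lowest value for 10 of those 20 members, C3, CFB and SERPINB2 among them. HMC replicate 1 held the highest for 13. Without HMC replicate 3 the counts stayed at 11 higher in DPC and 13 higher in HMC.

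The other 28 members had too little RNA to test, and 17 of them had fewer than 10 reads over all 6 libraries. In DPC 15 members were at 0 in every culture, and in HMC 2 were, SERPINA5 and F2RL3. The highest single value among the 28 was 1.49 FPKM, that of C5AR1. When no limit was set, 63.0% of all genes and 5 of the 28 were called: C5AR1, the second CLU row and the second SERPINB2 row toward HMC, and F12 and PLG toward DPC.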

How the data were processed

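The authors deposited FPKM for 6 mRNA libraries, 1 column per sample. Per the labels' protocols, RNA was extracted with Trizol and stranded TruSeq mRNA libraries were made. HISAT2 2.2.1.0, Trimmomatic and DESeq 1.20.0 appear in the submitters' processing notes with no role. Not given in the sources used here are the annotation, the build of the genome and the program that counted reads, and no coordinates or sequences are printed. FPKM does not correct for a difference in RNA composition. Within a relative tolerance of 1e-09 all 15646 genes had values that are whole multiples of a step, which gives reads per gene up to a common factor, so the reads quoted are lower limits. Replicates were not copies, since the chi-square of these reads was at least 2.63 per gene.

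The whole table, as log2(FPKM + 1), was fitted in R 4.3.3 with limma 3.58.1, using a trend in the prior variance and the Benjamini-Hochberg adjustment over all tested genes; the procedure was first tested on simulated data. The direction is DPC minus HMC, two-sided, and the added 1 makes the change of low genes look smaller than it is. Ratios used exact permutation tests (scipy 1.17.1). Other work used Python 3.11.15, numpy 2.4.6, pandas 2.3.3 and matplotlib 3.10.9.

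Members and lists were chosen with earlier results of these data known. Values per culture are given for tested members among the 12 largest differences or 8 highest means, and for others chosen after their values were seen. Older symbols of the table, in parentheses, were matched to current ones by the table's annotation. Values of some genes that enter the counts are not reported here. RefSeq gene order came from assembly Bosgru_T2T1.0.

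Alternatives were a pseudocount of 0.1, no filter, a filter at 5 FPKM, 3 other scalings (median-of-ratios, quantile, equal FPKM sums), no variance trend, the replicate number as a block, each replicate left out, and voom on the recovered reads. Equal sums and voom were added after the data were seen.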

Additional observations from a re-analysis of the deposited data

How the results depend on the processing

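Of 27 tested members 22 kept their direction and their side of the threshold in all 15 alternatives; the exceptions were CFD, BDKRB2, BDKRB1 (ENSBGRG00000017462), C8G and PROCR. With a filter at a mean of 5 FPKM 16 members remained to be tested, 7 higher in DPC and 8 higher in HMC. With the replicate number as a block the counts were 11 and 13, as without it. Deviations of same-numbered cultures correlated at 0.023, 0.034 and 0.006. Cultures with unlike numbers gave values such as -0.041 (DPC replicate 1 with HMC replicate 2) and 0.007 (DPC replicate 3 with HMC replicate 2). Correlations this small cannot decide whether equal numbers pair the cultures. C8G and PROCR, not called in any alternative, changed sign after median-of-ratios rescaling (log2 differences 0.0076 and 0.052), quantile normalization (0.043 and 0.067) and scaling to equal sums (0.053 and 0.10). With 1 culture left out in turn they ranged from -0.21 to 0.036 and from -0.094 to 0.0031. Members under about 10 reads allow no statement about a difference at this depth.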

Other observations

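Genes that act beside the 2 cascades were read from a list of 33, of which 26 were matched and 24 tested. Of these 9 were higher in DPC and 13 higher in HMC (91.7% called). Over all tested genes 75.9% were called, 29.7% higher in DPC and 46.2% higher in HMC. The protein S receptor AXL (UFO) stood at 165 ± 5.12 FPKM in DPC, against 18.6 ± 1.06 in HMC (SD over n = 3 each; log2 difference 3.09, limma adjusted p = 6.33e-10), the direction of PROS1. Of the vitamin K enzymes, which protein S needs for its carboxylation, 2 were higher in DPC. These were GGCX (GC) at 34.5 against 20.1 FPKM and VKORC1 at 25.8 against 14.7 FPKM. VKORC1L1 was higher in HMC, at 15.6 against 11.2 FPKM. Among further protease inhibitors, TFPI2 stood at 199 ± 4.76 FPKM in DPC, against 11.8 ± 0.954 in HMC (SD, n = 3 each), and SERPINE2 (PI7) at 60.2 and 10.9 FPKM. SPINT2 (HAI2), an inhibitor of membrane serine proteases, stood at 26.9 FPKM in DPC, against 844 in HMC, and SERPINB5 (PI5) at 0.284 and 20.03 FPKM.

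Of 4 listed cell-surface proteins that bind plasminogen 3 were matched, and these 3 were higher in HMC, while PLGRKT was not analysed here. Annexin A2 (ANXA2, in the table ANX2) stood at 1817 ± 20.8 FPKM in DPC, against 5421 ± 148 in HMC, and its partner S100A10 at 745 ± 21.4 and 2228 ± 73.7 FPKM (SD, n = 3 each), with log2 differences of -1.58 for both. ENO1, a glycolytic enzyme that also binds plasminogen, had a log2 difference of -0.69. LRP1 (A2MR), the receptor that clears complexes of proteases with their inhibitors, stood at 291 ± 5.08 FPKM in DPC, against 12.99 ± 0.256 in HMC (SD over n = 3 each; log2 difference 4.38, limma adjusted p = 4.99e-11). NT5E (NT5), which makes adenosine from AMP outside the cell, stood at 127 FPKM in DPC, against 2.61 in HMC.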
